A study of Mus musculus with 58 samples.

Results

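The 10 genes described here encode the proteins with which a mouse cone turns light into an electrical signal: Opn1sw, Opn1mw, Gnat2, Gnb3, Gngt2, Pde6c, Pde6h, Cnga3, Cngb3 and Arr3. They were chosen by name for their role, with earlier results of these data known, and all 10 were found among the 52459 gene symbols of the count table. In a cone, light activates an opsin, the opsin activates the G protein transducin, and transducin switches on a phosphodiesterase that breaks down cyclic GMP. The cyclic nucleotide-gated channel then closes and the cell hyperpolarizes, until arrestin binds the phosphorylated opsin and ends its activity. Cones serve daylight and colour vision and are a small minority of the photoreceptors in the mouse retina, where rods dominate.

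RNA was sequenced from retinas of 4-month-old male mice with heterozygous Ins2Akita (C57BL/6-Ins2Akita/J, called diabetic) and of their male littermates without the phenotype (C57/BL/6, called control). Ins2Akita is an insulin 2 allele whose misfolded product damages the beta cells of the pancreas, so that the mice become hyperglycemic without any drug, and every cell of the animal carries the allele. All mice lived from birth in 12 h of light and 12 h of darkness, with free access to food and water. Retinas were taken after perfusion with phosphate-buffered saline, every 4 h from ZT1 to ZT21, where ZT counts the hours from lights on, and at night under dim red light. The control group held 5, 6, 5, 5, 5 and 4 libraries at these times and the diabetic group 5, 5, 5, 4, 4 and 5, in all 30 and 28. The comparisons asked at which time of day each transcript was high, and whether its level or its daily course differed in diabetes.

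Between 7773117 and 22147398 reads per library were counted on genes, with a median of 15406440. All 5 cone genes outside the cascade that were used as markers were detected in both groups, and together they made up 412 to 487 CPM (counts per 1000000 counted reads) in control and 394 to 500 in diabetic libraries. Lens RNA entered 3 control libraries, ZT1 replicate 6, ZT17 replicate 5 and ZT21 replicate 2, with 2130, 1410 and 1690 CPM for 5 lens markers, against at most 48.3 in any other library, and 3 of the 5 markers were called lower in diabetic mice over all ZT. Results that moved without these 3 libraries are given below.

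Of the 10 genes, 6 had a promoter in the RefSeq table used here (build GRCm38.p6). The promoters of Opn1sw and Arr3 are shown because these 2 transcripts had opposite daily courses in both genotypes. Each run is the 250 bases before the RefSeq start, read 5′ to 3′ on the strand of the gene, with motif matches in capitals. For Opn1sw and Gnat2 the Gencode spans given with their values below begin further upstream, so distances hold for the RefSeq start only. Opn1sw lies on the minus strand and its run covers chr6:29380514-29380763, while that of Arr3 covers chrX:100605247-100605496 on the plus strand.
Opn1sw: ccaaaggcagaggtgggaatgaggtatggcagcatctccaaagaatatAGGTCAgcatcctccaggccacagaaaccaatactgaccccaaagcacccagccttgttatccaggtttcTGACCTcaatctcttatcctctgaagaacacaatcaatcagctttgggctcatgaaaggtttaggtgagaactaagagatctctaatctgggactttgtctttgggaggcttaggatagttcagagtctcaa
Arr3: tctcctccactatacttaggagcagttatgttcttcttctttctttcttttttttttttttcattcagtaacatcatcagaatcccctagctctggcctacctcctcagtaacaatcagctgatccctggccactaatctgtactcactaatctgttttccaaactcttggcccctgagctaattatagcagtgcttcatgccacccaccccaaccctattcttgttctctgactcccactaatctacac
The motifs were searched on both strands: the E-box CACGTG bound by clock proteins, the CRX core TAATCC, the D-box TTATGTAA and the nuclear receptor element AGGTCA. Opn1sw held 2 of the nuclear receptor elements in opposite orientation, beginning 202 and 132 bases before the start, and Gnat2 held 1 CRX core on the opposite strand, beginning 19 bases before the start. The other promoters with an entry, those of Arr3, Opn1mw, Pde6h and both of Cnga3, held none of these letters in this window. Among all 32851 promoters of the table, 14.0% held AGGTCA, 6.25% the CRX core, 6.02% the E-box and 0.819% the D-box. These are matches of letters only.

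Arr3 encodes cone arrestin, which binds phosphorylated cone opsin and ends its signal (chrX:100605497-100618493). It had the largest daily change of the 10 genes in both genotypes. At ZT9 the control libraries held 3430, 3610, 4001, 3150 and 2934 normalized counts, and at ZT21 they held 2265, 1868, 1669 and 1506, so that every library of the late day was above every library of the late night. In the diabetic retina the ZT9 libraries held 3974, 3532, 3536, 3457 and 3862 normalized counts and the ZT21 libraries 1826, 1786, 1502, 1522 and 1574, again without overlap. Here and for the genes below, most ZT set against each other were those of the highest and lowest mean. They were picked from the same values, so a lack of overlap describes the libraries and is not a test of rhythm. The ZT means differed 1.88-fold in control and 2.24-fold in diabetic mice. A 24 h cosine gave a relative amplitude, the amplitude as a share of the fitted mean, of 29.6% ± 2.89 (SE, n = 30) in control and 34.2% ± 3.25 (SE, n = 28) in diabetic libraries. The acrophase, the fitted time of the peak, was ZT8.77 ± 0.34 h (SE) in control and ZT8.59 ± 0.37 h in diabetic retinas. The empirical JTK_CYCLE test, which ranks each series against cosine-like waveforms, gave a permutation p = 1e-06 in both genotypes (n = 30 and n = 28), the smallest that its shuffled series could give.

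**Figure D1:**
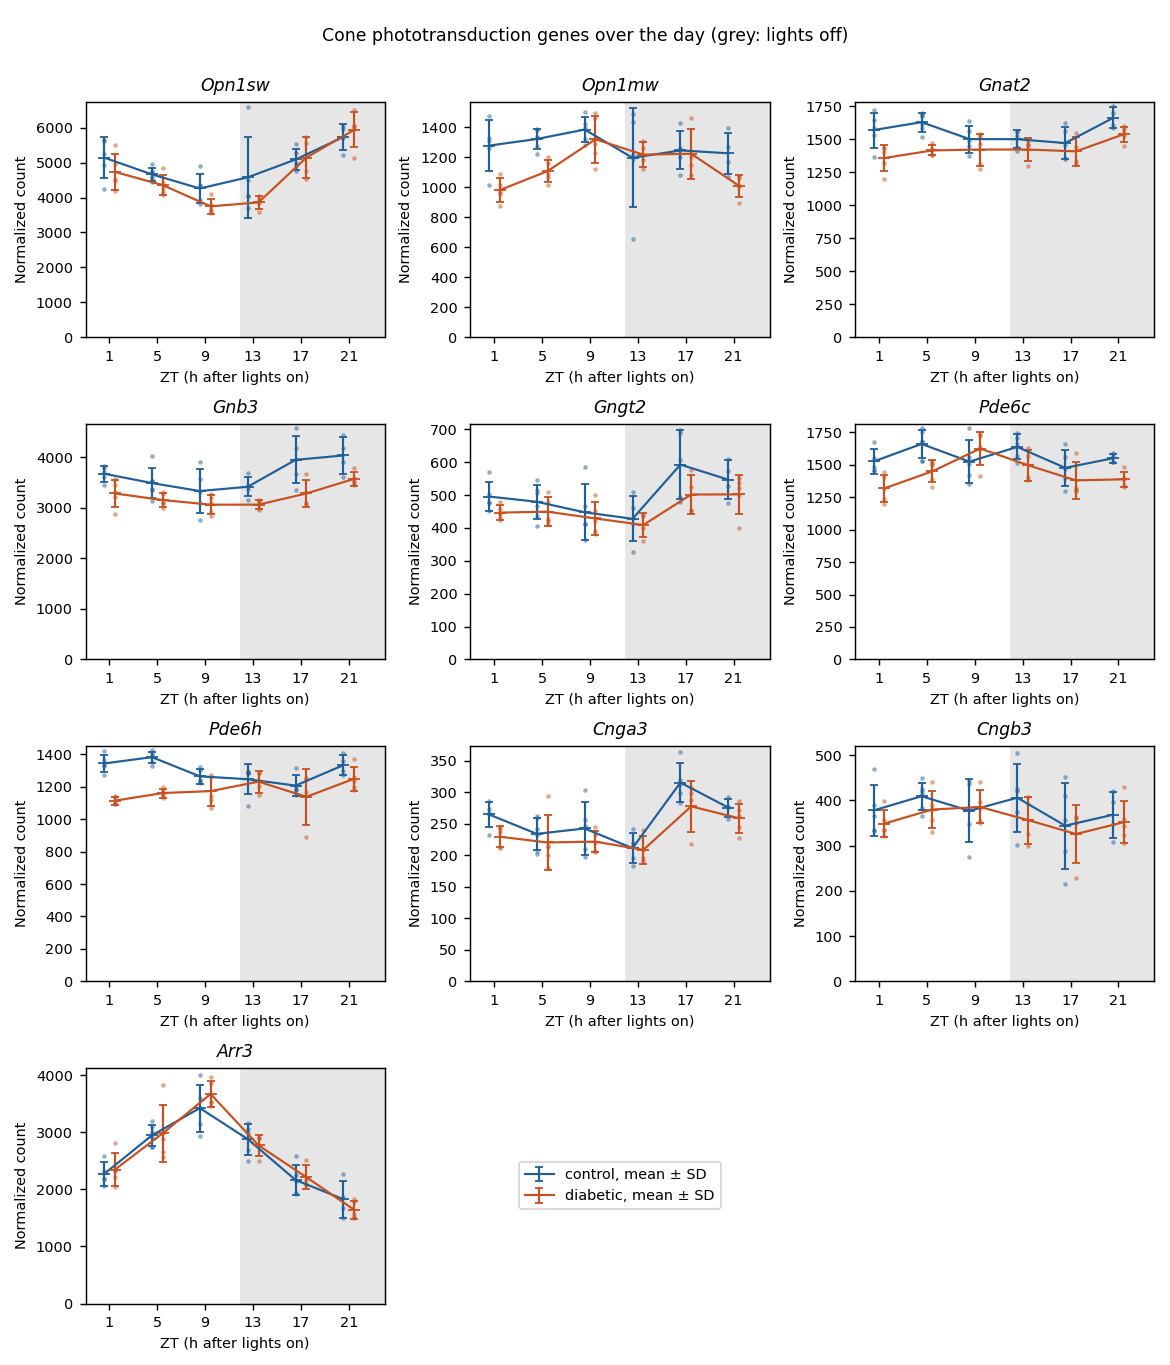
Normalized counts (y axis, from 0) of the 10 cone phototransduction genes against ZT in hours after lights on (x axis). Each point is 1 library, lines join group means with SD, blue is control, orange is diabetic and grey marks lights off; Arr3 was highest at ZT9 and Opn1sw at ZT21 in both genotypes.

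A transcript was called rhythmic with an unadjusted permutation p below 0.05 and a highest library more than 25% above the lowest one. In control retinas 7 of the 10 genes met this: Opn1sw, Gnat2, Gnb3, Gngt2, Pde6h, Cnga3 and Arr3. Of all 19086 genes tested in control 21.8% did. In diabetic retinas 7 of the 10 met it as well, namely Opn1sw, Opn1mw, Gnb3, Gngt2, Pde6c, Cnga3 and Arr3, against 23.9% of 19145 genes. With Benjamini-Hochberg adjustment over all genes, 6 genes remained in control (without Gnat2) and 5 in diabetic retinas (without Gngt2 and Cnga3), where the shares of all genes were 8.25% and 9.79%. Without the 3 control libraries with lens RNA, Gnb3 and Gngt2 no longer passed after adjustment in control (adjusted p = 0.0661 and 0.148), which left 4 genes, while the 7 unadjusted calls remained. Over all genes, 3858 then met the unadjusted criteria in control. Because the fold was taken between single libraries, it is also set by the spread within a ZT: taken between ZT means, 4 genes were called in each genotype, without Gnat2, Gnb3 and Pde6h in control and without Gnb3, Gngt2 and Pde6c in diabetic mice. Over all genes, 2529 of 19086 were then called in control and 2712 of 19145 in diabetic mice. With edgeR's test of the 6 ZT, Gnat2 and Pde6h did not pass in control (adjusted p = 0.177 and 0.0919), nor did Gnb3 and Gngt2 in diabetic mice (0.188 and 0.31). With edgeR's cosine, Gnat2 did not pass in control (0.146), nor Gngt2 and Cnga3 in diabetic mice (0.192 and 0.0581). Of all 18814 genes in edgeR, the test of the 6 ZT called 1740 in control and 1922 in diabetic mice. The cosine called 2358 and 2731.

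Opn1sw encodes the short-wavelength opsin (chr6:29376671-29388468). Its transcript ran opposite to Arr3, with 3805, 4329, 3931, 4891 and 4346 normalized counts in control at ZT9 and 5222, 5703, 6062 and 5956 at ZT21. Diabetic retinas held 3795, 3552, 4097, 3669 and 3628 at ZT9 and 6050, 5133, 6052, 5961 and 6505 at ZT21. The late-night libraries were above all late-day libraries in both genotypes, by 1.35-fold of the means in control and 1.58-fold in diabetic mice. The acrophase was ZT21.2 ± 0.84 h in control and ZT21.0 ± 0.50 h in diabetic libraries, with relative amplitudes of 13.1% ± 3.06 (SE, n = 30) and 21.5% ± 2.73 (SE, n = 28). The permutation p was 5e-05 in control (n = 30, adjusted p = 0.00252) and 2e-06 in diabetic libraries (n = 28, adjusted p = 0.000473). Opn1sw shares 397 exon bases with Calu on the opposite strand, and the strand setting of the counting is not given in the sources used here. Calu summed to 58103 counts over all libraries.

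Opn1mw encodes the medium-wavelength opsin (chrX:74127464-74150760). In diabetic retinas it was lowest around lights on and highest at ZT9: at ZT1 it held 877.9, 965.3, 955.1, 1090 and 1014 normalized counts, at ZT9 1231, 1119, 1288, 1493 and 1464, and at ZT21 1008, 894.4, 1076, 1006 and 1064. Every ZT9 library was above every ZT1 and ZT21 library. The fitted acrophase was ZT11.6 ± 0.71 h with a relative amplitude of 14.4% ± 2.65 (SE, n = 28), and the permutation p was 5.5e-05 (n = 28, adjusted p = 0.00304). In control retinas the ZT means spanned 1196 to 1384 normalized counts, the relative amplitude was 5.34% ± 3.40 (SE, n = 30), and the test did not pass (permutation p = 0.155, n = 30), except without ZT17 replicate 1 (0.0487). One control library, ZT13 replicate 3, stood apart for both opsins: it held 656.4 Opn1mw and 6582 Opn1sw normalized counts, while the other 4 libraries of that group held 1185 to 1488 and 3712 to 4510. Without it the rhythm of Opn1mw in control still did not pass (permutation p = 0.116), and that of Opn1sw did (permutation p = 5e-06).

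The 3 subunits of cone transducin had their highest mean at ZT17 or ZT21 in both genotypes. Gnb3, the beta subunit, which ON bipolar cells also express (chr6:124834240-124840275), ranged in ZT means from 3329 at ZT9 to 4032 at ZT21 in control and from 3059 to 3570 at the same times in diabetic mice. Its acrophases were ZT20.4 ± 0.89 h and ZT21.3 ± 0.88 h, and its relative amplitudes 9.70% ± 2.36 (SE, n = 30) and 7.11% ± 1.58 (SE, n = 28). Gngt2, the gamma subunit (chr11:95837216-95845734), had a mean of 428 ± 68.1 normalized counts at ZT13 and 593 ± 104 at ZT17 in control (SD), and the libraries of these times overlapped. In diabetic mice the means were 409 ± 36.7 and 502 ± 59.4, and the acrophases were ZT20.3 ± 1.14 h and ZT20.5 ± 1.34 h. Gngt2 shares 234 exon bases with Abi3 on the opposite strand. Gnat2, the alpha subunit (chr3:108092789-108101432), varied least of the 3, by 1.13-fold of the ZT means in both genotypes. In control its mean was highest at ZT21 (1660) and lowest at ZT17 (1470), with overlapping libraries, and the acrophase was ZT1.29 ± 1.39 h. In diabetic mice the mean was highest at ZT21 (1537) and lowest at ZT1 (1357), without overlap of these libraries, and the acrophase was ZT18.6 ± 2.95 h. Its permutation p was 0.0185 in control (n = 30, adjusted p = 0.123) and 0.236 in diabetic libraries (n = 28, adjusted p = 0.491). The control call was lost without ZT5, ZT9, ZT13 or ZT21 (permutation p between 0.0543 and 0.077), and the diabetic libraries passed without ZT17 (0.0339). In diabetic mice the calls of Gnb3 and Gngt2 were lost without ZT21 (permutation p = 0.239 and 0.0829), and that of Gngt2 also without ZT13 or ZT17 (0.0513 and 0.0519).

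Pde6c, the catalytic subunit of the cone phosphodiesterase (chr19:38132781-38183958), peaked in the diabetic retina at ZT9 with 1734, 1413, 1621, 1636 and 1722 normalized counts and was lowest at ZT1 with 1195, 1237, 1403, 1445 and 1311, so that the ranges met. The acrophase there was ZT10.1 ± 0.93 h with a relative amplitude of 8.70% ± 2.05 (SE, n = 28), and the permutation p was 0.0019 (n = 28, adjusted p = 0.0256). The call was lost without ZT9 (permutation p = 0.139). In control retinas Pde6c did not pass (permutation p = 0.525, n = 30). Pde6h, the small inhibitory subunit that holds the enzyme inactive in the dark (chr6:136923832-136968865), was rhythmic in control libraries, with an acrophase of ZT2.65 ± 0.79 h, a relative amplitude of 6.18% ± 1.22 (SE, n = 30) and a permutation p = 0.000224 (n = 30, adjusted p = 0.0071). Like Gnat2, it had its lowest control mean at ZT17 (1206). Its diabetic means were highest at ZT21 (1248) and lowest at ZT1 (1113), again without overlap of these libraries, although the diabetic rhythm test did not pass. The amplitude in diabetic libraries was 2.55% ± 2.14 (SE, n = 28), with a permutation p = 0.061 (n = 28). With single diabetic libraries left out it lay between 0.00948 and 0.126, and the test passed without replicate 3 or replicate 4 of ZT9 or of ZT17, as it did without all of ZT9 (0.0175) or of ZT17 (0.00723). In control the permutation p fell to 9e-05 without ZT13, but the highest library was then no longer more than 25% above the lowest, and the same held without ZT13 replicate 2 alone. Pde6h shares 136 exon bases with Arhgdib on the opposite strand.

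The channel subunits differed from each other. Cnga3, which forms the cation pore (chr1:37214434-37263384), differed between ZT13 and ZT17: the control libraries went from 195.5, 182.6, 217.3, 242.6 and 220.2 to 364.4, 313.8, 298.6, 282.8 and 319 normalized counts, without overlap. The diabetic libraries went from 191.1, 208.1, 240 and 195.8 to 217.4, 299.3, 288.6 and 306.4, where 1 ZT17 library lay within the ZT13 range. Acrophases were ZT20.1 ± 0.96 h and ZT19.4 ± 1.22 h, with relative amplitudes of 13.8% ± 3.59 (SE, n = 30) and 11.1% ± 3.44 (SE, n = 28). The permutation p was 0.000105 in control (n = 30, adjusted p = 0.00419) and 0.0081 in diabetic libraries (n = 28, adjusted p = 0.0661), where the call was lost without ZT21 (0.174). Cngb3, the modulatory subunit (chr4:19280850-19510623), passed in neither genotype (permutation p = 0.644, n = 30, and 0.38, n = 28), and its ZT means stayed between 326 and 409 normalized counts.

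**Figure D2:**
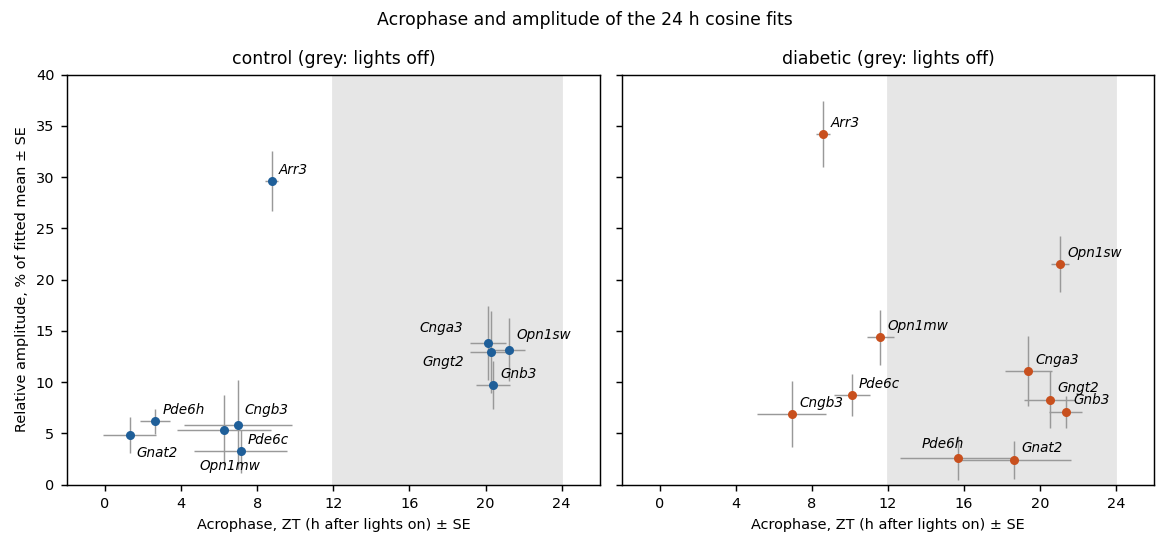
Relative amplitude in percent of the fitted mean (y axis) against acrophase in ZT hours (x axis) of the 24 h cosine for each gene, control left and diabetic right, with SE on both axes and lights off in grey. Arr3 lies alone at ZT8.77 and ZT8.59 with 29.6% and 34.2%, while Opn1sw, Gnb3, Gngt2 and Cnga3 lie between ZT19.4 and ZT21.3 in both genotypes.

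Levels between genes were compared per length, as RPKM over the annotated principal transcript, for genes with 1 such transcript. In control libraries Opn1sw stood at 139 ± 18.4, Gnb3 at 135 ± 12.3 and Arr3 at 134 ± 33.9 (SD, n = 30), which did not differ beyond their spread. Opn1mw followed at 72.0 ± 9.91, Gnat2 at 52.3 ± 4.59, Pde6c at 41.8 ± 3.77 and Pde6h at 15.1 ± 1.197, and Cngb3 was lowest of these 8 at 5.62 ± 1.01 (SD, n = 30). Gngt2 and Cnga3 have 7 and 2 principal transcripts, and over the longest of them they stood at 21.5 ± 3.21 and 4.96 ± 0.705 (SD, n = 30), the latter within the spread of Cngb3. Rod transducin alpha (Gnat1) stood at 3764 ± 506 on the same scale (SD, n = 30). The order depends on the transcript lengths taken.

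Over all ZT, 4 of the 10 genes were lower in diabetic than in control retinas and none was higher. They were Pde6h, Gnb3, Gnat2 and Pde6c, the inhibitory subunit of the phosphodiesterase, 2 subunits of transducin and the catalytic subunit. Their levels were 0.893 (Gnb3) to 0.923 (Pde6c) of the control level. Of all 18814 genes tested 3.11% were called, and 1.45% were called and lower in diabetic mice (edgeR's quasi-likelihood test, Benjamini-Hochberg adjusted p below 0.05). All 10 differences were below 0 on the log2 scale, with a median of -0.12, where 9161 of all 18814 genes were below 0 with a median of 0.0023. That of Arr3 was only -0.0044 and became 0.021 without control ZT9 replicate 3. In retina samples, fewer cones and less RNA per cone cannot be told apart.

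For Pde6h the control libraries held 1080, 1299 and 1423 normalized counts (lowest, median and highest, n = 30) and the diabetic libraries 887.9, 1172 and 1367 (n = 28). The log2 difference was -0.14 ± 0.028 (SE), 0.908 of the control level, with an adjusted p = 0.00162. Gnb3 held 2763, 3588 and 4566 against 2828, 3203 and 3791, with a log2 difference of -0.16 ± 0.036 (adjusted p = 0.00483). The ranges of the genotypes overlapped for both genes, and the diabetic mean was lower at all 6 ZT. Gnat2 held 1348, 1561 and 1754 in control and 1198, 1438 and 1598 in diabetic libraries, with a log2 difference of -0.12 ± 0.028 (adjusted p = 0.00726), and it too was lower at all 6 ZT. Pde6c held 1298, 1555 and 1785 against 1195, 1405 and 1734, with -0.12 ± 0.034 (adjusted p = 0.04), and was lower at 5 of 6 ZT. It was the least certain call of the 4, since it was lost with 14 of the 58 libraries left out one at a time (adjusted p between 0.0161 and 0.0584). In control these were ZT5 replicates 2, 4 and 5, ZT9 replicate 2 and ZT13 replicate 5, and in diabetic mice ZT1 replicates 1, 2 and 5, ZT5 replicate 4, ZT17 replicates 1, 3 and 4 and ZT21 replicates 4 and 5. It was also lost without the 3 lens-containing libraries (adjusted p = 0.0586), with no filter on low counts (0.0632), and without any one ZT except ZT9 (0.0503 to 0.249). Without ZT1 or without ZT5, only Gnb3 was still called.

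The other 6 genes did not pass. With 1 group per genotype, Opn1mw had the largest difference of the 10, -0.17 ± 0.053 on the log2 scale (adjusted p = 0.0619). With the fit of 12 groups named below, Gnb3 had a larger one (-0.171, beside -0.163 for Opn1mw). With 1 group per genotype, Opn1mw passed with 9 of the 58 libraries left out one at a time (adjusted p between 0.0069 and 0.0865 over all 58). These were ZT1 replicate 2, ZT13 replicate 3, ZT17 replicate 4 and ZT21 replicate 3 in control, and ZT9 replicates 3, 4 and 5, ZT13 replicate 4 and ZT17 replicate 5 in diabetic mice. The smallest adjusted p was that without control ZT13 replicate 3, at -0.19. It also passed without ZT9 (adjusted p = 0.0483) or ZT13 (0.0149), with a replicate block (0.0367), with a fit of 12 groups, one per genotype and ZT (adjusted p = 0.0312), and with DESeq2 (adjusted p = 0.0458). Gngt2 and Cnga3 each lay at -0.12 (adjusted p = 0.27 and 0.315), Cngb3 at -0.09 ± 0.057 (adjusted p = 0.503) and Opn1sw at -0.07 ± 0.060 (adjusted p = 0.648). For Arr3 the log2 difference was -0.0044 ± 0.092 (adjusted p = 0.993), with a 95% interval from -0.18 to 0.18. With the fit of 12 groups it was -0.00012 ± 0.040, with an interval from -0.079 to 0.078. The diabetic mean of Arr3 was lower at 2 of 6 ZT.

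**Figure D3:**
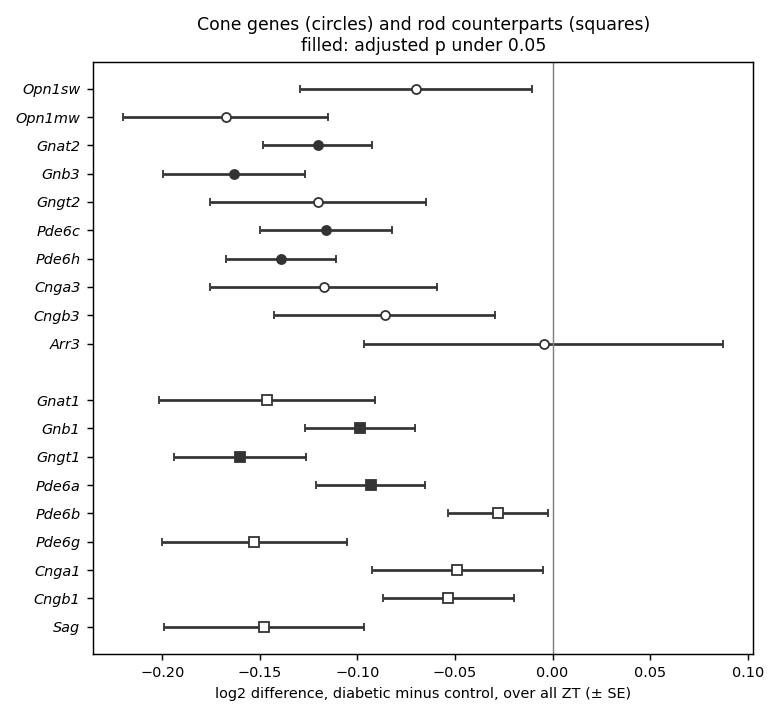
Log2 difference between diabetic and control retinas over all ZT (x axis) with SE for the 10 cone genes (circles) and 9 rod counterparts (squares); filled symbols passed an adjusted p of 0.05. All values lie below 0, with Pde6h, Gnb3, Gnat2 and Pde6c filled among the cone genes and Gnb1, Gngt1 and Pde6a among the rod genes.

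At single time points no gene of the cascade passed after adjustment in edgeR without further correction. With edgeR the share of all 18814 genes that passed was highest at ZT17 with 0.175%. By day it was 0.0213% (ZT5), 0.0106% (ZT1) and 0.00532% (ZT9), and both at ZT13 and at ZT21 it was 0%. At ZT13 and ZT21, where edgeR called no gene, 843 and 878 genes had an unadjusted p below 0.05 and DESeq2 called 1 and 8. Among the 10 genes, 5 had an unadjusted p below 0.05 at each of ZT1 and ZT5, where 5.49% and 6.1% of all genes did. At ZT21 there were 3 (4.67% of all genes), at ZT13 and ZT17 2 each (4.48% and 8.94%), and at ZT9 0 (4.44%). Pde6h came nearest. Its libraries at ZT1 held 1417, 1331, 1364, 1270 and 1329 normalized counts in control and 1138, 1098, 1143, 1095 and 1090 in diabetic mice, a log2 difference of -0.27 ± 0.059 (edgeR adjusted p = 0.131). At ZT5 they held 1329, 1388 and 1423 in control (lowest, median and highest of 6) and 1196, 1129, 1180, 1156 and 1140 in diabetic mice, a difference of -0.25 ± 0.057 (edgeR adjusted p = 0.0938). The genotypes did not overlap at either time. With DESeq2 both morning differences passed, at adjusted p = 0.0257 and 0.0261, and with edgeR they passed when diabetic ZT17 replicate 4, the library with 887.9 counts, was left out of the common fit (adjusted p = 0.0195 and 0.0176). With the GC and length correction they passed too (adjusted p = 0.0237 and 0.0476), as did Gnb3 at ZT17 (-0.23, adjusted p = 0.0311).

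In 8 of the 60 pairs of a gene and a ZT the libraries of the genotypes did not overlap, and the diabetic libraries were the lower ones in all 8. Over all genes tested, 1.34% of 112884 such pairs did not overlap, and in 0.695% the diabetic libraries were the lower ones. These were Pde6h at ZT1 and ZT5, Pde6c at ZT1, ZT5 and ZT21, Gnat2 and Opn1mw at ZT5, and Gnb3 at ZT13. By ZT this was 2 of the 10 genes at ZT1 (0.92% of all genes), 4 at ZT5 (1.11%), 1 at ZT13 (1.08%) and 1 at ZT21 (2.23%), with 0 at ZT9 (0.771%) and at ZT17 (1.95%). For Opn1mw the ZT5 libraries ranged from 1218 to 1386 normalized counts in control and from 1014 to 1203 in diabetic mice. For Gnat2 they ranged from 1514 to 1701 and from 1378 to 1470. The number of genes with a lower diabetic mean was 9 of 10 at ZT1, ZT5, ZT13 and ZT21, 8 at ZT17 and 7 at ZT9.

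Whether the daily course itself differed between genotypes was tested by the interaction of genotype with a 24 h cosine and sine, in one edgeR fit. None of the 10 genes and 0% of the 18814 genes passed, with 654 genes at an unadjusted p below 0.05 and 0 called by DESeq2 or limma voom. The unadjusted p was smallest for Pde6h (0.00563 over all 58 libraries, n = 58) and Opn1mw (0.00954, n = 58), whose adjusted p was 1.00 in both cases. For Pde6h it fell to 3.21e-05 without diabetic ZT17 replicate 4 (adjusted p = 0.153). A rhythm that passed in one genotype only, as for Opn1mw and Pde6c in diabetic and for Gnat2 and Pde6h in control retinas, is therefore not shown to differ between them. Arr3 and Opn1sw had unadjusted p of 0.415 and 0.111 (n = 58).

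Night was also compared with day as the mean of ZT13, ZT17 and ZT21 against that of ZT1, ZT5 and ZT9. In control retinas 8.11% of the 18814 genes passed and 1 of the 10, Arr3, which was lower at night with a difference of -0.34 ± 0.056 on the log2 scale (edgeR adjusted p = 2.81e-05). In diabetic retinas 14.3% of genes passed and 2 of the 10: Arr3 was lower at night with a difference of -0.45 ± 0.058 (edgeR adjusted p = 7.91e-08) and Opn1sw higher with 0.20 ± 0.056 (adjusted p = 0.00964). Without the 3 libraries with lens RNA, Gnb3 passed too in control (0.14, adjusted p = 0.0445). The Arr3 call in control was lost without ZT9 (-0.20, adjusted p = 0.0506) or without ZT21 (-0.18, adjusted p = 0.0672). The Opn1sw call in diabetic retinas was lost without ZT9, ZT17 or ZT21 (adjusted p = 0.305, 0.101 and 0.611). The difference of these contrasts between genotypes passed for 0 of the 10 genes and for 0% of all genes in edgeR, with 633 genes at an unadjusted p below 0.05 and 3 called by DESeq2. For Arr3 it was -0.12 ± 0.080 and for Opn1sw 0.07 ± 0.078 on the log2 scale. These became -0.08 for Arr3 without control ZT21 replicate 1 and 0.13 for Opn1sw without control ZT13 replicate 3.

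Cell type markers also differed between night and day. Of 5 pigment epithelium markers, 3 were called higher at night in each genotype: Rpe65, the visual cycle isomerase (1.00 ± 0.200 in control and 1.59 ± 0.220 in diabetic mice on the log2 scale), Ttr (0.97 ± 0.181 and 1.70 ± 0.192) and Lrat (0.90 ± 0.173 and 1.29 ± 0.191). The 5 together made up 247 to 429 CPM by day and 264 to 443 at night in control, and 229 to 374 and 231 to 404 in diabetic libraries, and none had a median of 0. Most of this sum was Rlbp1, which is also among the Muller glia markers and was not called, with a mean of 3841 normalized counts in control beside 668 for Ttr. Of 4 ON bipolar markers, 3 were called higher at night in each genotype (Grm6, Trpm1 and Isl1, by 0.18 to 0.24), and together they made up 1060 to 1290 CPM by day and 1200 to 1360 at night in control, and 976 to 1300 and 1060 to 1270 in diabetic libraries. Of the 5 cone markers outside the cascade, Thrb, Ccdc136 and Kcne2 were called higher at night in both genotypes and Rxrg in diabetic mice. Their sums were 412 to 468 CPM by day and 437 to 487 at night in control, and 401 to 468 and 394 to 500 in diabetic libraries. Of 3 Muller glia markers, Glul was called higher at night in both genotypes, and no lens or blood marker passed. Of 6 rod markers, 2 were called lower at night in each genotype, Nr2e3 and Sag, the latter by -0.13 ± 0.044 in control (edgeR adjusted p = 0.0486) and -0.27 ± 0.046 in diabetic mice (adjusted p = 3.11e-05). The part of these markers in the daily courses of the cone genes was not tested.

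The ratio of the 2 opsin transcripts put their daily courses together. Opn1sw over Opn1mw normalized counts averaged 3.08 ± 0.198 (SD, n = 5) in control at ZT9 and 4.74 ± 0.77 (SD, n = 4) at ZT21. In diabetic retinas it averaged 2.88 ± 0.373 (SD, n = 5) at ZT9 and 5.88 ± 0.199 (SD, n = 5) at ZT21, when it was 6.00, 5.74, 5.63, 5.93 and 6.12 in the single libraries. The control libraries at ZT21 held ratios of 4.12, 4.09, 5.66 and 5.09, of which 1 reached into the diabetic range. The ratio in control ZT13 replicate 3 was 10.03, and in the other 4 libraries of that group it was 2.81 to 3.34. That library held 7238 normalized counts of both opsins together, and the others 4897 to 5998. The values are described without a test, and a ratio of counts of transcripts of different length is not a ratio of molecules.

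**Figure D4:**
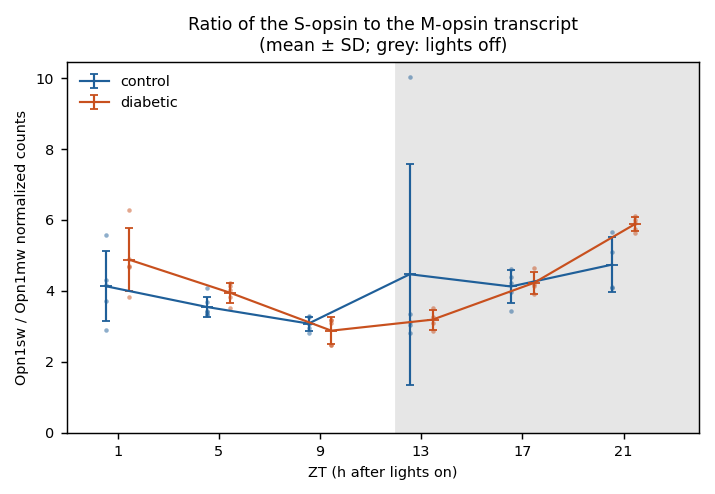
Ratio of Opn1sw to Opn1mw normalized counts (y axis, from 0) against ZT in hours after lights on (x axis), with 1 point per library and group means with SD, control in blue, diabetic in orange and lights off in grey. The diabetic ratio was lowest at ZT9 with 2.88 and highest at ZT21 with 5.88, and the single control point at 10.03 is ZT13 replicate 3.

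Of 10 rod counterparts of the cascade, 3 passed over all ZT and all 3 were lower in diabetic retinas: Gngt1, the rod transducin gamma subunit (-0.16 ± 0.034 on the log2 scale, adjusted p = 0.0026), Gnb1, its beta subunit (-0.10 ± 0.028, adjusted p = 0.0347), and Pde6a, a rod phosphodiesterase subunit (-0.09 ± 0.028, adjusted p = 0.0471). All 10 rod differences lay below 0, with a median of -0.10. The 5 cone markers outside the cascade had a median of -0.02 and none passed. Of the 11 genes for photoresponse shut-off and calcium feedback none passed and 8 lay below 0 (median -0.05), and of 10 photoreceptor transcription factors none passed and 8 lay below 0 (median -0.03). The 4 ON bipolar markers had a median of -0.08, and the 6 rod markers of -0.08, with none called in either list. Of 5 pigment epithelium markers, 3 Muller glia markers and the 1 blood marker that was tested, none passed. The part of these shifts in the result for the cone genes was not tested.

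Of the 10 rod cascade genes, 2 met the unadjusted rhythm criteria in control (Sag and Pde6a) and 3 in diabetic retinas (Sag, Pde6a and Pde6b), near the shares of all genes of 21.8% and 23.9%. After adjustment the same 2 remained in control and Sag alone in diabetic retinas. Sag, rod arrestin, had its acrophase at ZT8.68 ± 0.75 h in control and ZT8.03 ± 0.39 h in diabetic retinas, with relative amplitudes of 11.5% ± 2.39 (SE, n = 30) and 19.3% ± 1.91 (SE, n = 28), beside the 29.6% and 34.2% of Arr3 at nearly the same hour. Of the shut-off and feedback genes 5 of 11 met the unadjusted criteria in control mice and 6 in diabetic ones, and after adjustment 2 (Gnb5 and Rcvrn) and 4 (these with Guca1a and Guca1b), with the smallest adjusted p in control for Gnb5 (0.000281) and Rcvrn (0.00194) and the others being Grk1, Guca1b and Slc24a1. Of the transcription factors 7 of 10 met the unadjusted criteria in each genotype and 5 remained after adjustment in each (Crx, Nr2e3, Thrb and Rorb, with Mef2d in control and Sall3 in diabetic mice), led by Rorb and Nr2e3 (adjusted p = 0.000178 each in control and 0.000473 each in diabetic retinas). Between night and day 5 of these factors passed in control (Crx, Nr2e3, Thrb, Rorb and Mef2d) and 6 in diabetic mice. In both, Nr2e3 was lower at night (-0.34 ± 0.053 and -0.36 ± 0.055 on the log2 scale) while Rorb was higher (0.43 ± 0.054 and 0.58 ± 0.056).

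Within groups the 10 genes did not vary as one. After removing the mean of each of the 12 groups, Pearson's r over the 58 libraries was 0.68 between Gngt2 and Cnga3, 0.56 between Gnb3 and Gngt2 and 0.47 between Gnat2 and Pde6h. It was -0.66 between Gnb3 and Cngb3 and -0.63 between Gngt2 and Cngb3. These deviations ran along with a component of variation shared by all genes, which held 36.9% of the within-group variance: r with it was 0.85 for Gngt2, 0.67 for Gnb3, 0.61 for Cnga3 and -0.85 for Cngb3, but 0.01 for Pde6c and -0.16 for Pde6h. All points share library and depth, and the part of this component in the results was not tested. With a correction for GC content and length trends within libraries, Gnat2, Gnb3, Pde6c and Pde6h all remained called lower in diabetic retinas. This correction was made for those trends, not for the component, and was added after seeing the data. Over all genes it raised the number called from 586 to 956.

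The mean of the 10 centred log2 profiles was 1.07 times its overall level in control at ZT5 and 0.923 times in diabetic mice at ZT1, the highest and lowest of the 12 groups. The 5 genes with the most similar course over the 12 group means were Gm11478 (r = 0.91), Rnf123 (0.893), Nkiras2 (0.878), Park7 (0.872) and Cst3 (0.87). Over the 58 libraries their r was 0.375, 0.724, 0.467, 0.415 and 0.381. Of these, Gm11478 averaged only 22.7 normalized counts.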

How the data were processed

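Total RNA of mouse retinas was depleted of ribosomal RNA and sequenced. Per the labels and the study's methods, the authors aligned reads with STAR 2.7.4a to GRCm38.p5, counted them per gene with HTSeq 0.11.1 and the Gencode M15 annotation, and deposited whole-number counts, not normalized. All 58 columns were assigned to a sample by their title. The 10 genes and all lists were chosen with earlier results of these data known.

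Genes were kept by edgeR's filterByExpr (minimum count 10, 18814 genes). edgeR 4.0.16 (TMM, quasi-likelihood) in R 4.3.3 was the main test, with DESeq2 1.42.0 and limma 3.58.1 as alternatives. Adjusted p-values are Benjamini-Hochberg over all genes tested. Over all ZT, libraries formed 1 group per genotype; single ZT and night against day came from 1 fit of 12 groups. Normalized counts are counts divided by DESeq2 size factors, recomputed in Python 3.11.15 with numpy 2.4.6 and pandas 2.3.3. The empirical JTK_CYCLE test was rewritten with a period of 24 h, 30 waveforms and 1000000 shuffled series (200000 in the alternatives), on genes with a median above 4 normalized counts. A cosine interaction in edgeR stood in for the study's differential rhythm package. Acrophases came from least squares, with delta-method SE. The main edgeR tests and the rewritten JTK_CYCLE test were tried on simulated counts, with a genotype change larger than those of the 10 genes. DESeq2, limma, the replicate block, the GC and length correction and the acrophase fits were not. Levels per length and gene positions used Gencode M21 (GRCm38), and promoters came from RefSeq.

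Named are all 10 genes, list genes with the 2 smallest adjusted p-values or where a count is 5 or fewer, and the 5 genes most similar over the 12 group means. In the rod lists, 1 gene is counted but not reported here. Replicates are separate samples by their labels, and the 113 replicate pairs all differed by more than sampling noise (chi-square per degree of freedom 1.87 to 79.8). At 7773117 counts or more per library, the least abundant of the 10 genes, Cnga3, had at least 114 counts. Alternatives were a different normalization, filter or test, a replicate block, and omission of each library and each ZT. A GC and length correction and leaving out 3 libraries with over 1000 CPM of lens markers were added after seeing the data.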

Additional observations from a re-analysis of the deposited data

Results flagged for a closer look

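In 4 of 120 combinations of a gene and a group, 1 library lay far from the others of its group by Dixon's ratio; chance flags about 1 in 20. Opn1sw in control ZT13 replicate 3 was at 6582 normalized counts, with 3712 to 4510 in the other 4 libraries. Pde6h in control ZT13 replicate 2 was at 1080, below the 1281 to 1297 of the others. In diabetic ZT17, Pde6c was at 1592 in replicate 5, against 1298 to 1317, and Cngb3 was at 228.8 in replicate 3, against 349.6 to 363.7. No difference in rhythm or in night against day between genotypes passed for any of the 10 genes in edgeR.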

How the results depend on the processing

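When single libraries were left out, the number of cone genes called ranged from 3 to 5 for genotype over all ZT, from 0 to 2 for genotype at each ZT (2 without diabetic ZT17 replicate 4), from 1 to 2 for night against day in control (2 without control ZT5 replicate 5, ZT9 replicate 4, ZT17 replicate 2 or ZT21 replicate 2, where Gnb3 was added), from 2 to 3 in diabetic mice, from 6 to 8 for rhythm in control and from 7 to 8 in diabetic mice. Genotype over all ZT called 1 gene without ZT1 and 1 without ZT5, against 4. Genotype at each ZT called 2 with DESeq2 and 3 with the GC and length correction, against 0. Night against day in control called 3 without ZT1, 0 without ZT9, 5 without ZT13, 0 without ZT21 and 2 without the 3 libraries with lens RNA, against 1, and in diabetic mice 1 without ZT9 and 1 without ZT21, against 2. Rhythm with the fold over ZT means called 4 in control and 4 in diabetic mice, and 4 in diabetic mice without ZT21, against 7. The cause of these shifts was not tested.

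Over all genes, genotype over all ZT called 586, but 387 without a filter, 956 with the GC and length correction, 886 as the mean of the 6 ZT contrasts, and 336, 278, 252 and 233 without ZT1, ZT5, ZT17 and ZT21. Genotype at each ZT called 40 in all, 133 with DESeq2, 88 with the replicate block and 193 with the correction. Night against day in control called 1525, with the correction 2431, and 520 to 2649 without a ZT; in diabetic mice it called 2684, and 1213, 1514 and 1758 without ZT17, ZT21 and ZT5. The difference in rhythm called 0, but 3 without a filter, 10 with the replicate block, 10 without ZT1 and 2 without ZT17. Rhythm called 4169 and 4567, with edgeR's cosine 2358 and 2731, with its test of 6 ZT 1740 and 1922, and with the fold over ZT means 2529 and 2712; without ZT17 it called 2700 in control.

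Of 26 same-numbered pairs of libraries, 21 correlated above 0.1 in their deviations (median r = 0.302, range -0.494 to 0.819), against 37 of 114 differently numbered pairs (median r = -0.0991). Of 52 libraries with a same-numbered one, 27 correlated best with it. The labels give no shared litter, batch or day for a number and 5 of the 26 pairs did not exceed 0.1, so the block is given as an alternative only. With a replicate block, genotype over all ZT called 5 of the cone genes (Opn1mw added), night against day 1 in control and 2 in diabetic mice, and the other genotype comparisons 0; edgeR's cosine with the block called 6 genes in control and 6 in diabetic mice. Of 8270 values for single genes under an alternative, 60 lost and 45 gained a call and none that was called changed sign. Cnga3 and Cngb3 had the fewest counts; what depth limits was not tested.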
